A study of Homo sapiens with 6 samples.

Results

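RAB GTPases and the TBC1D proteins that switch them off were followed in a B-cell lymphoma line treated with erianin. Members were the genes whose symbol is RAB or TBC1D with a number and at most 1 letter, and that had at least 20 counts summed over the 6 libraries. Of 99 such symbols 82 met this rule, 54 RAB and 28 TBC1D genes, out of 12763 symbols with that many counts. RNA sequencing had been done on SU-DHL-8, a human cell line established from diffuse large B-cell lymphoma and labelled as wild type, after 24 h with 100 nM erianin (3 libraries) or with the solvent DMSO (3 libraries). Erianin is a plant bibenzyl compound described as a tubulin ligand. The series title places the experiment in a study of erianin, pyroptosis and PI3K/AKT signalling. All libraries came from this 1 line, at 1 dose and 1 time.

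RAB proteins are small GTPases that mark membranes, each on its own compartment, and direct the budding, transport, tethering and fusion of vesicles there. Guanine nucleotide exchange factors (GEFs) load a RAB with GTP, which lets it bind effectors, and GTPase-activating proteins (GAPs), most of them with a TBC domain, make it hydrolyse the GTP. A lipid attached by RAB geranylgeranyl transferase holds the RAB in the membrane, and GDP dissociation inhibitor takes the inactive form out of it. In B cells these steps serve, among others, antigen receptor uptake, antigen presentation and secretion.

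Total counts were 30956443 to 35588728 per library, at which 3 counts correspond to 0.0819 to 0.0985 CPM, the TMM-normalized counts relative to library size that give the levels used below. The ± values on log2 fold changes below are standard errors of the fit and include spread between libraries. DMSO replicate 1 stood apart. Its biological coefficient of variation against the other DMSO libraries was 0.291 and 0.294, against 0.0381 between those and 0.0336 to 0.0815 among the erianin libraries, and its CPM lay outside the range of the other 5 libraries in 65.7% of the 11550 genes tested. The same held for 52 of the 75 members tested (69.3%), so the counts of called genes are given with and without it. All 8 B-cell markers were measured, with a summed CPM of 8122 to 8169 with DMSO and 5833 to 6401 with erianin. None of 6 T-cell, 5 epithelial, 5 fibroblast and endothelial or 4 erythroid and platelet markers had enough counts to be tested. Of 7 myeloid markers 3 did, with a summed CPM of 4.30 to 7.27 with DMSO and 9.42 to 10.6 with erianin, most of it LYZ, while S100A8 and S100A9 were at 0; their part in the results was not tested. The labels number the replicates without naming separate cultures, so the p-values cover only library-to-library spread, which may be technical. In bulk RNA, fewer cells of a kind and less RNA per cell cannot be told apart.

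Among RAB genes rises outnumbered falls, and among TBC1D genes every call was a fall. A gene is called here where edgeR's quasi-likelihood test gave a Benjamini-Hochberg adjusted p under 0.05 over all genes tested. In simulated data most changes by a factor of 1.5 or 2 went uncalled. Few genes were changed there, which made the adjustment stricter than in these data. A gene not called may still have changed. Of 48 RAB genes tested 9 were higher with erianin (18.8%, against 11.8% of all genes), 4 were lower (8.33%, against 12.3%) and 35 were not called. Of 27 TBC1D genes tested 0 were higher, 7 were lower (25.9%) and 20 were not called. Only TBC1D24 was higher at an unadjusted p under 0.05, and DESeq2 and limma-voom also called 0 TBC1D genes higher. In all, 20 of 75 members were called, against 24.2% of all genes either way. In every one of the 20 the erianin and DMSO libraries did not overlap in CPM. The calls rest on the same counts, so this is no separate support for them. All erianin libraries lay above all DMSO libraries in 17 RAB and 5 TBC1D genes (23.6% of all genes did so), and below them in 8 RAB and 8 TBC1D genes (23.2%).

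The median log2 fold change (erianin minus DMSO) was 0.21 over the RAB genes and -0.23 over the TBC1D genes, against -0.003 over all genes. On the log2(TPM + 1) and log2(TPM + 0.1) scales the TBC1D median was 0.05 on both, with the median of all genes at 0.20 and 0.28. TPM was used as deposited, and summed to 39.2% of its full total in DMSO replicate 1 against 63.6% to 66.7% elsewhere. The part of this in the TPM results was not tested. Scaling by total counts alone gave 13 RAB genes higher and 3 lower, and 1 TBC1D gene higher and 4 lower, with 15.9% of all genes higher and 7.95% lower. The split also moved with single libraries. Without DMSO replicate 1, 20 of 49 RAB genes were higher and 6 lower, and 4 of 27 TBC1D genes were higher (TBC1D24, TBC1D14, TBC1D32 and TBC1D10C) and 12 lower, while 27.8% of all genes were then called higher, 27.4% lower and 55.3% either way. Leaving out DMSO replicate 2 or 3, or erianin replicate 1, 2 or 3, left 2, 3, 1, 2 and 2 RAB genes higher, while 6.91%, 7.44%, 3.67%, 3.48% and 5.28% of all genes were called higher in the same fits. Leaving out erianin replicate 1, 2 or 3 left 1, 1 and 2 RAB genes and 3, 2 and 4 TBC1D genes lower, with 2.98%, 2.89% and 4.97% of all genes. Calls over all genes fell in the same fits.

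**Figure D1:**
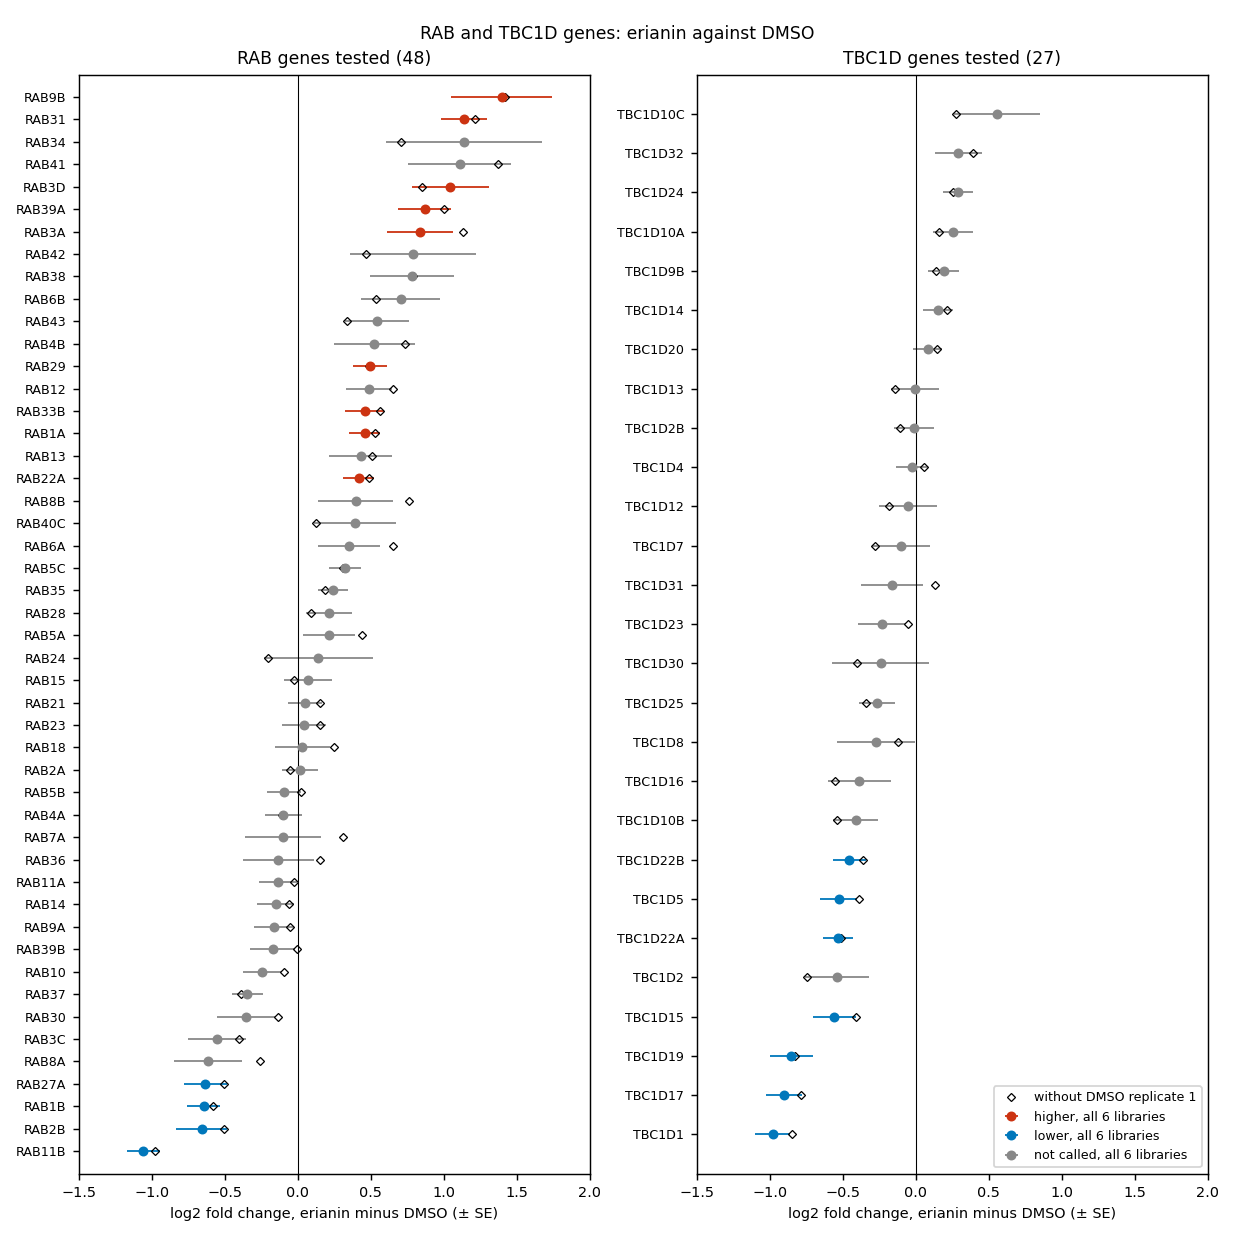
Log2 fold change (erianin minus DMSO, 3 libraries each) of the 48 RAB genes (left) and 27 TBC1D genes (right) tested, with standard errors as horizontal bars. Filled circles show all 6 libraries, red where called higher, blue where called lower and grey where not called, and open diamonds show the value without DMSO replicate 1. RAB9B, at 1.40, and RAB31, at 1.14, head the RAB genes, RAB11B ends them at -1.06, and no TBC1D circle is red.

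The promoters of members that differed in direction are shown so that their composition can be seen beside the values. RefSeq (GRCh38.p14) gave a promoter for 64 of the 82 members, and the 250 bases before the start were searched. Each sequence is the stretch of that window with no annotated exon, 5′ to 3′, and capitals mark GGGCGG or its complement CCGCCC, the GC box. RAB31 (higher with erianin) is shown at chr18:9708051-9708164, RAB11A (not called) at chr15:65869241-65869455, RAB1B (lower) at chr11:66268389-66268532 and TBC1D1 (lower) at chr4:37890834-37891083, all on the plus strand.
RAB31: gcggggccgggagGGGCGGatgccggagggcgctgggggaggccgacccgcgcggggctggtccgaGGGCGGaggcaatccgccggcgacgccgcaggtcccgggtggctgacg
RAB11A: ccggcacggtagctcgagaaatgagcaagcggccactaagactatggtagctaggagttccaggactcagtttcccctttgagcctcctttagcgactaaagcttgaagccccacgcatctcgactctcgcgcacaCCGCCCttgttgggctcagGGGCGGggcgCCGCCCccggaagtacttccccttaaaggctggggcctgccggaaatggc
RAB1B: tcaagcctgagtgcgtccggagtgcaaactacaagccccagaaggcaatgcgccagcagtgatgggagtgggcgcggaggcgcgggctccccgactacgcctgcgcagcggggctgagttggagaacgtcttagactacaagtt
TBC1D1: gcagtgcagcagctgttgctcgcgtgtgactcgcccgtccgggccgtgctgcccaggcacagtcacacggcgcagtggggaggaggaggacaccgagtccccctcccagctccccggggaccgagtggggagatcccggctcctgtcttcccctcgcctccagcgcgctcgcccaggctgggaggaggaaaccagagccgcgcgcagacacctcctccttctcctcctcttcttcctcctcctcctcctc

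The stretches of RAB31 and RAB11A hold 2 and 3 GC boxes and those of RAB1B and TBC1D1 hold 0. The direction of the change did not sort the members by this motif: RAB1B has a GC box elsewhere in its window, the stretch of TBC1D15 (lower) holds 3, and that of RAB29 (higher) holds 0. Over the whole window and both strands, 49 of 64 members (76.6%) had a GC box, against 42.3% of 27305 RefSeq promoters. The members' promoters were also richer in GC, with a median of 65.6% against 58% over all promoters, and the part of base composition in the count of GC boxes was not tested. CACGTG, the E box bound by MiT/TFE factors of lysosomal genes among others, stood in 10 of 64 members (15.6%) against 6.49% of all promoters, and CCAAT in 16 (25%) against 33.0%. ACGTG, the core of the hypoxia response element, which CACGTG contains, was found in 21 members (32.8%) against 18.7%. Of called members with a promoter in the table, a GC box was found in 6 of 7 that were higher and 6 of 10 that were lower. These are matches of letters, not sites shown to be bound.

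In the secretory group (22 of 23 genes tested), 3 genes were higher and 2 lower (13.6% and 9.09%, against 11.8% and 12.3% of all genes), or 10 higher and 3 lower without DMSO replicate 1 (45.5% and 13.6%, against 27.8% and 27.4%). Within the RAB1 pair the genes moved in opposite directions. RAB1A and RAB1B act in transport from the endoplasmic reticulum to the Golgi. RAB1A (chr2:65070696-65130331, minus strand, GRCh38) was at 56.6, 48.5 and 51.6 CPM in DMSO replicates 1 to 3 and at 74.1, 74.8 and 66.4 CPM in erianin replicates 1 to 3. Every erianin library was above every DMSO library, with a log2 fold change of 0.46 ± 0.11 (SE, n = 3 per group, adjusted p = 0.023 by edgeR). RAB1B (chr11:66268533-66277492, plus strand) was at 129, 119 and 113 CPM with DMSO and 74.7, 71.9 and 84.0 CPM with erianin. All erianin libraries were below the DMSO range, and the log2 fold change was -0.65 ± 0.11 (adjusted p = 0.0081). RAB1A shares 757 exonic bases with CEP68 and RAB1B 589 with AP001107.2, both on the opposite strand. In all, 11 of the 20 called members share exonic bases with another gene. The gene sharing the most bases was on the same strand in RAB27A (183 bases with PIGBOS1) and TBC1D5 (211 bases with SATB1). Strands of further overlapping genes, as in RAB3D, TBC1D17 and RAB1B, were not examined. How the counting treated strand and reads that fit several paralogs is not given in the sources used here, so the values of such genes are uncertain in that respect.

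The other called secretory genes were RAB2B, RAB29 and RAB33B. RAB2B, a Golgi RAB, was at 24.1, 17.5 and 19.6 CPM with DMSO and 14.3, 13.8 and 10.7 CPM with erianin, a log2 fold change of -0.66 ± 0.17 (adjusted p = 0.032). Its DMSO libraries spread widely, with replicate 1 the highest, but none reached down to the erianin libraries. RAB29, which recruits the kinase LRRK2 to membranes, was at 12.7, 12.9 and 13.4 CPM with DMSO and 19.2, 19.2 and 16.7 CPM with erianin (0.50 ± 0.12, adjusted p = 0.022). RAB33B, which binds the autophagy protein ATG16L1, was at 10.0, 8.53 and 8.23 CPM with DMSO and 12.8, 12.8 and 11.3 CPM with erianin (0.46 ± 0.13, adjusted p = 0.044). Both rose in every erianin library, with erianin replicate 3 the lowest of its group. RAB33B shares 694 exonic bases with AC097376.2 on the opposite strand. None of these 5 secretory calls held in every fit that left out 1 library. RAB1A and RAB33B lost their calls when any of the 5 libraries apart from DMSO replicate 1 was dropped (adjusted p up to 0.11 and 0.16). RAB29 was not called without DMSO replicate 2 or 3 or erianin replicate 1 or 2 (up to 0.10), RAB2B without DMSO replicate 3 or whichever erianin library was dropped (up to 0.11) and RAB1B without erianin replicate 1 or 2 (up to 0.063). On both TPM scales RAB1B, RAB2B and RAB29 were not called (adjusted p by limma up to 0.21, 0.18 and 0.069), with RAB1B at -0.37 and RAB2B at -0.36 on log2(TPM + 1). RAB2B was not called with total counts alone (adjusted p = 0.069), nor RAB33B with no filter on low counts (adjusted p = 0.072).

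Among RABs of early endosomes and recycling (13 of 14 tested), RAB31 and RAB22A were higher and RAB11B was lower. These were 15.4% and 7.69%, against 11.8% and 12.3% of all genes. Without DMSO replicate 1 there were 5 higher and 1 lower of 14 (35.7% and 7.14%, against 27.8% and 27.4%). RAB31 (chr18:9708165-9862551, plus strand), a RAB5-like RAB of the trans-Golgi network and endosomes, was at 4.24, 3.70 and 3.79 CPM with DMSO and 9.72, 8.78 and 7.34 CPM with erianin. The lowest erianin library was well above the highest DMSO library, and the log2 fold change was 1.14 ± 0.16 (adjusted p = 0.0043). RAB22A, its early endosome relative, was at 30.0, 26.0 and 27.5 CPM with DMSO and 35.8, 39.2 and 36.6 CPM with erianin, a log2 fold change of 0.42 ± 0.11 (adjusted p = 0.029). The RAB22A groups were separate, but the gap was small beside that of RAB31, and RAB22A lost its call when any of the 5 libraries apart from DMSO replicate 1 was dropped (adjusted p up to 0.13) or with no filter on low counts (adjusted p = 0.054). RAB11B (chr19:8389981-8404434, plus strand), a RAB of the recycling endosome, was at 90.1, 77.2 and 79.5 CPM with DMSO and 37.7, 37.8 and 43.0 CPM with erianin. Its groups were far apart, with the lowest adjusted p of all members, at a log2 fold change of -1.06 ± 0.11 (adjusted p = 0.0022). RAB11B shares 306 exonic bases with RAB11B-AS1 on the opposite strand. RAB11B and RAB31 kept their calls in all 16 alternative fits. The 3 RAB5 genes, which control early endosome fusion, were not called. The log2 fold changes were 0.21 ± 0.18 for RAB5A, -0.10 ± 0.12 for RAB5B and 0.32 ± 0.11 for RAB5C, and without DMSO replicate 1 RAB5A (0.44) and RAB5C (0.31) were higher.

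Of 5 late endosome and lysosome RABs tested, RAB39A and RAB9B were higher, joined by RAB7A without DMSO replicate 1. The shares higher were 40% and then 60%, against 11.8% and 27.8% of all genes. RAB39A, which acts at late endosomes, was at 3.35, 3.05 and 2.26 CPM with DMSO and 5.21, 5.46 and 5.14 CPM with erianin, a log2 fold change of 0.87 ± 0.18 (adjusted p = 0.016). RAB9B, a minor relative of RAB9A in transport from late endosomes to the trans-Golgi network, was at 0.263, 0.277 and 0.235 CPM with DMSO and 0.764, 0.462 and 0.829 CPM with erianin. Both genes were higher in every erianin library, but RAB9B lies only about 3 times above the level of 3 counts with DMSO, and its log2 fold change of 1.40 ± 0.35 (adjusted p = 0.026) is imprecise. RAB39A was not called without any 1 erianin library (adjusted p up to 0.076), nor RAB9B without DMSO replicate 2 or 3 or erianin replicate 1 or 3 (up to 0.11). RAB9A, at 14.99 CPM with erianin and 16.8 CPM with DMSO on average, was not called (-0.16 ± 0.14).

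In the group of secretory granules and lysosome-related organelles 6 of 9 genes were tested. RAB3A and RAB3D, which act in regulated exocytosis, were higher, and RAB27A, which docks granules and multivesicular bodies at the plasma membrane, was lower. That was 33.3% higher and 16.7% lower, against 11.8% and 12.3% of all genes. Without DMSO replicate 1 there were 2 higher and 2 lower (33.3% each, against 27.8% and 27.4%), RAB37 (-0.39) being the other lower gene. RAB3A was at 4.80, 3.08 and 2.73 CPM with DMSO and 5.98, 6.61 and 6.37 CPM with erianin (0.84 ± 0.23, adjusted p = 0.034). RAB3D was at 0.887, 1.23 and 1.74 CPM with DMSO and 2.40, 2.89 and 2.71 CPM with erianin (1.05 ± 0.26, adjusted p = 0.028). Both had wide DMSO groups, in which replicate 1 was the highest for RAB3A and the lowest for RAB3D, and neither group reached the erianin libraries. RAB27A was at 17.1, 14.5 and 12.8 CPM with DMSO and 10.4, 9.13 and 9.06 CPM with erianin (-0.63 ± 0.15, adjusted p = 0.021), with all erianin libraries lower. RAB3C was at 3.28, 2.22 and 2.76 CPM with DMSO and 1.80, 1.88 and 1.94 CPM with erianin, groups that did not overlap, but was not called (-0.55 ± 0.20, adjusted p = 0.084). RAB3A lost its call when any of the 5 libraries apart from DMSO replicate 1 was dropped (adjusted p up to 0.12), and RAB3D and RAB27A lost theirs when DMSO replicate 2 or an erianin library was dropped (both up to 0.11). On the TPM scales RAB27A was not called (adjusted p by limma up to 0.18, at -0.28 on log2(TPM + 1)), nor was RAB3D on log2(TPM + 0.1) (0.066). RAB3D shares 906 exonic bases with AC011472.3 on the opposite strand.

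**Figure D2:**
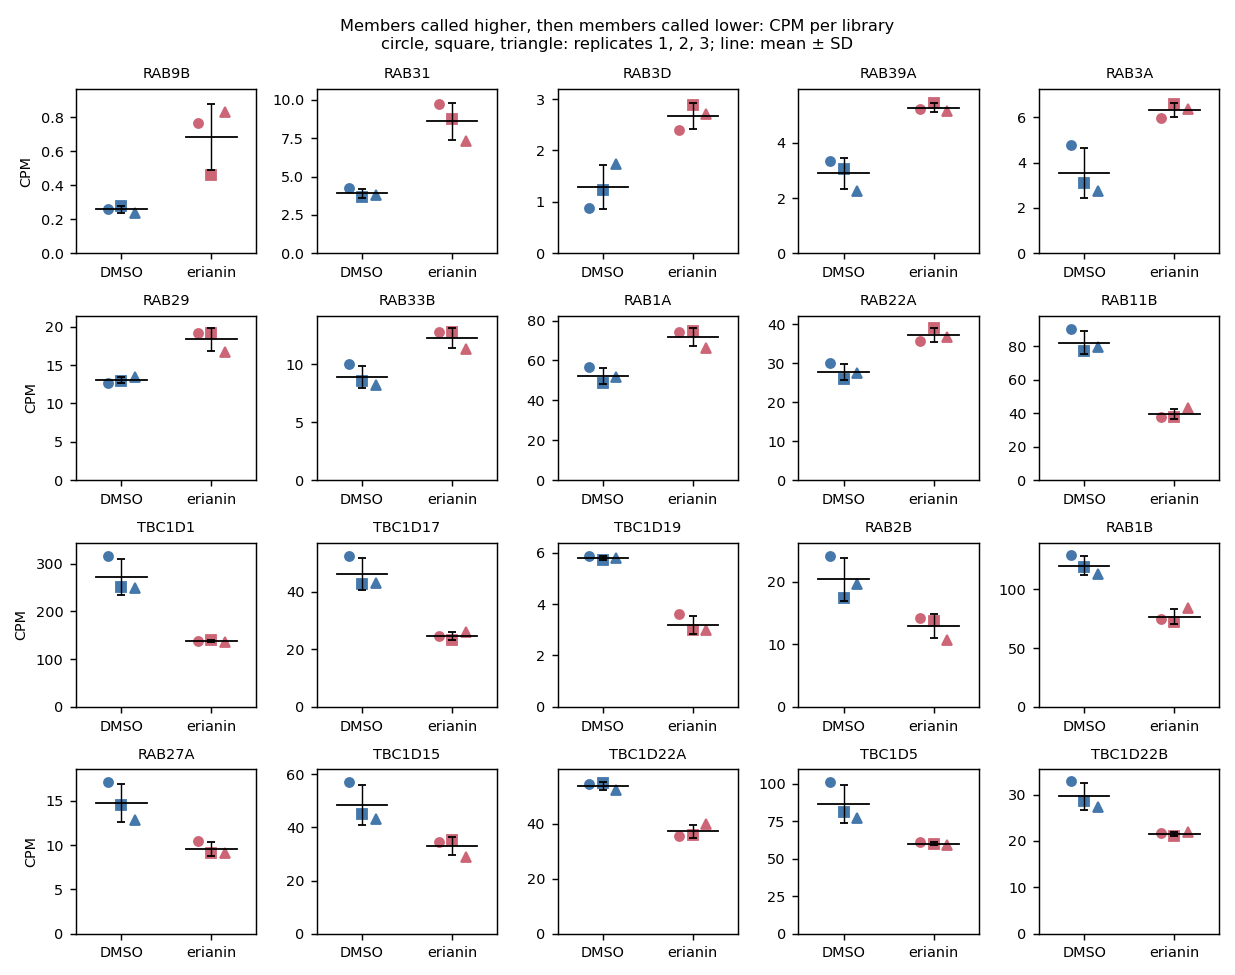
CPM in each library of the 20 members called, 9 higher and then 11 lower, with DMSO in blue and erianin in red. Circles, squares and triangles are replicates 1, 2 and 3, the line is the mean and the bar the SD (n = 3), and each axis starts at 0. In none of the 20 panels do the groups overlap.

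TBC1D genes are grouped by target RAB, compartment or relatedness, and the groups do not follow the RAB groups throughout. TBC1D25, a RAB33B GAP, is in the endocytic and lysosomal group although RAB33B is in the secretory group. TBC1D17 is there as a relative of TBC1D15, with no target RAB given here. The exocytic and Golgi group of 8 also holds TBC1D7, a subunit of the TSC complex, and TBC1D23, which bridges golgins and vesicles, for which no target RAB is given here. In this group 3 genes were lower and 0 higher (37.5% and 0%, against 12.3% and 11.8% of all genes). Without DMSO replicate 1, 4 were lower and 0 higher (50% and 0%, against 27.4% and 27.8%). TBC1D1 (chr4:37891087-38139175, plus strand), a GAP that AMPK and AKT phosphorylate, was at 316, 252 and 249 CPM with DMSO and 137, 141 and 136 CPM with erianin. It had the highest CPM of the called members, its erianin libraries were close together and far below the DMSO range, and the log2 fold change was -0.98 ± 0.12 (adjusted p = 0.0031). The Golgi TBC proteins TBC1D22A and TBC1D22B were also lower. TBC1D22A was at 54.6, 55.0 and 52.3 CPM with DMSO and 35.7, 36.01 and 40.03 CPM with erianin (-0.53 ± 0.10, adjusted p = 0.011). TBC1D22B was at 32.8, 28.7 and 27.3 CPM with DMSO and 21.8, 21.1 and 21.9 CPM with erianin (-0.46 ± 0.11, adjusted p = 0.026). In both every erianin library lay below every DMSO library. TBC1D4, the closest relative of TBC1D1 and an AKT substrate, was at 61.0, 54.6 and 51.2 CPM with DMSO and 53.0, 57.3 and 53.4 CPM with erianin, groups that overlapped (-0.03 ± 0.11, adjusted p = 0.88).

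Of 14 genes in the endocytic and lysosomal group, 3 were lower (21.4%, against 12.3% of all genes) and 11 were not called. Without DMSO replicate 1, 7 were lower (50%, against 27.4%) and 3 higher (21.4%, against 27.8%). TBC1D17 (chr19:49877425-49888749, plus strand), which binds optineurin, was at 52.5, 42.8 and 43.1 CPM with DMSO and 24.8, 23.2 and 26.1 CPM with erianin, a log2 fold change of -0.90 ± 0.12 (adjusted p = 0.0040). It shares 392 exonic bases with AKT1S1 on the opposite strand. Its relative TBC1D15, a RAB7 GAP at mitochondria and lysosomes, was at 56.9, 45.1 and 43.1 CPM with DMSO and 34.5, 35.1 and 28.9 CPM with erianin (-0.56 ± 0.15, adjusted p = 0.031). TBC1D5, a RAB7 GAP bound to retromer, was at 101, 81.2 and 77.3 CPM with DMSO and 60.9, 60.1 and 59.0 CPM with erianin (-0.53 ± 0.13, adjusted p = 0.024). In all of these DMSO replicate 1 was the highest library, and the other DMSO libraries were still above every erianin library. Outside these groups TBC1D19, whose target is less settled, was at 5.88, 5.70 and 5.79 CPM with DMSO and 3.60, 3.004 and 3.0001 CPM with erianin (-0.85 ± 0.15, adjusted p = 0.0084). It had the narrowest DMSO group of the called members relative to its level, with erianin replicate 1 the nearest to it.

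TBC1D1 and TBC1D17 kept their calls in all 16 alternative fits. TBC1D22A lost its call once erianin replicate 1 or 2 was dropped (adjusted p up to 0.078) and TBC1D19 without erianin replicate 2 (0.059). TBC1D5 was not called without any 1 erianin library (up to 0.11), and TBC1D15 and TBC1D22B lost their calls when DMSO replicate 2 or an erianin library was dropped (up to 0.11 and 0.13). All 5 of these were also not called on both TPM scales (adjusted p by limma up to 0.40 for TBC1D22A, 0.12 for TBC1D19, 0.27 for TBC1D5, 0.26 for TBC1D15 and 0.45 for TBC1D22B), where their changes were -0.18 to -0.56. With total counts alone TBC1D5, TBC1D15 and TBC1D22B were not called (adjusted p = 0.062, 0.076 and 0.074). Summed over the 28 TBC1D genes, TPM made up 0.0574% to 0.0600% of all TPM with DMSO and 0.0533% to 0.0552% with erianin, ranges that did not overlap. For the 54 RAB genes it was 0.235% in DMSO replicate 1, 0.167% and 0.170% in the other DMSO libraries and 0.172% to 0.186% with erianin.

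The make-up of RAB families was compared in 21 shares, of which 11 did not overlap between the groups and 10 did, although 3 against 3 libraries cannot give a p under 0.1. In CPM, all erianin libraries lay above all DMSO libraries in 23.6% of all genes and below them in 23.2%. Shares of a family also depend on each other, as those of RAB11A and RAB11B do. The share of a paralog in the summed TPM of its family does not depend on how a library was scaled, and TPM (transcript abundance scaled to gene length) lets genes be compared with each other. RAB1A made up 14.1%, 13.2% and 14.7% of RAB1 TPM with DMSO and 27.1%, 28.03% and 22.8% with erianin. RAB11A made up 35.95%, 35.4% and 34.0% of RAB11 TPM with DMSO and 53.5%, 52.3% and 45.2% with erianin. In both families the share in DMSO replicate 1 lay within or close to that of the other DMSO libraries. The RAB11A level was not called (-0.14 ± 0.13, adjusted p = 0.48), at 125, 105 and 102 CPM with DMSO and 109, 103 and 89.0 CPM with erianin, while RAB11B was lower. RAB25, the other RAB11 gene, made up at most 0.971%.

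RAB8A, which acts in polarized exocytosis, made up 83.1%, 83.3% and 83.4% of RAB8 TPM with DMSO and 69.5%, 70.4% and 73.8% with erianin. RAB39A went from 29.6%, 34.0% and 27.6% of RAB39 TPM to 47.3%, 47.0% and 47.8%. RAB3C went from 18.2%, 17.0% and 20.1% of RAB3 TPM to 7.88%, 7.34% and 7.87%. The groups were separate in each of these, with the erianin libraries of RAB3C and RAB39A within 1 percentage point of each other. RAB22A against RAB31 went from a mean of 87.2% ± 0.190 (SD, n = 3) to 80.6% ± 2.43, and RAB2A against RAB2B from 53.1% ± 6.499 to 64.4% ± 1.61. RAB5B made up 45.6% ± 1.63 of RAB5 TPM with DMSO and 39.4% ± 1.45 with erianin, RAB4A 93.2% ± 1.67 and 89.9% ± 1.27 of RAB4, and RAB9A 98.7% ± 0.134 and 96.2% ± 1.33 of RAB9. Over the 21 shares compared, the two-sided exact permutation p of every share named above except RAB25 was 0.1, the smallest that 3 against 3 libraries allow (0.19 after Benjamini-Hochberg adjustment), so none could pass. RAB25 gave p = 0.3 by the same exact permutation test. The other shares that overlapped were RAB3A, RAB3B, RAB3D, RAB5A, RAB5C, RAB6A, RAB7A, RAB26 and RAB33A, with exact permutation p from 0.2 to 1.

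**Figure D3:**
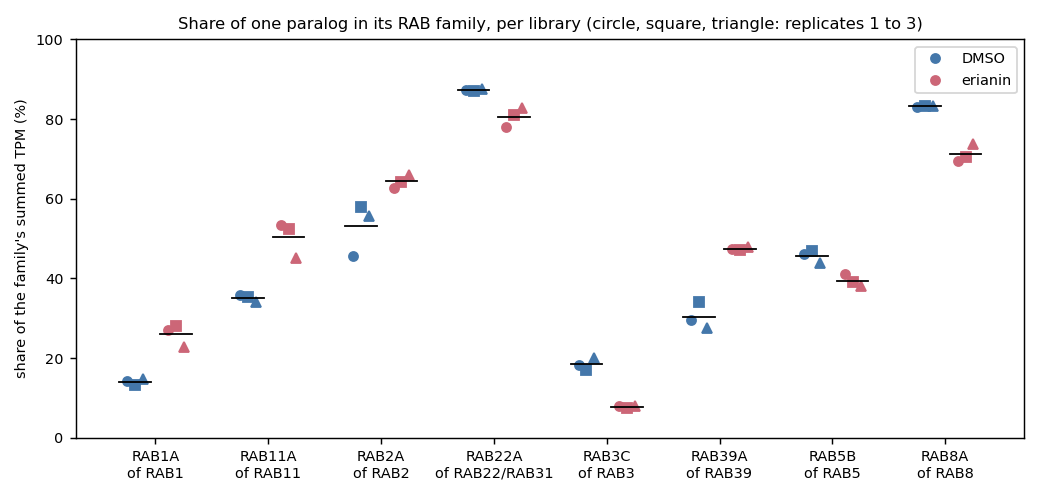
Share of 1 paralog in the summed TPM of its RAB family (percent) in each library, DMSO in blue and erianin in red. Circles, squares and triangles are replicates 1, 2 and 3 and lines are group means (n = 3). The 8 were chosen from the 11 shares of 21 whose groups do not overlap, RAB1A, RAB11A, RAB2A and RAB39A being higher with erianin and RAB22A, RAB3C, RAB5B and RAB8A lower.

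The 5 members with the highest mean TPM were RAB7A (165), RAB1B (155), RAB10 (106), RAB35 (100.2) and RAB11B (65.5). RAB7A, the main RAB of late endosomes and lysosomes, ranked first among members in 4 of 6 libraries, behind RAB1B in DMSO replicates 2 and 3. RAB11B ranked 4 or 5 with DMSO and 7 or 9 with erianin. RAB7A was at 364, 185 and 186 CPM with DMSO and 224, 230 and 231 CPM with erianin. The single high library was DMSO replicate 1: with it the log2 fold change was -0.10 ± 0.26 (adjusted p = 0.81), and without it 0.31 ± 0.06 (adjusted p = 8.0e-05 by edgeR). RAB10, which acts in exocytosis, was at 171, 130 and 134 CPM with DMSO and 123, 127 and 117 CPM with erianin (-0.24 ± 0.13, adjusted p = 0.22). RAB35, which acts in fast recycling and cytokinesis, was at 138, 155 and 163 CPM with DMSO and 183, 175 and 180 CPM with erianin. Its groups were separate, but it was not called with all libraries (0.24 ± 0.10, adjusted p = 0.13) and was higher without DMSO replicate 1 (0.19, adjusted p = 0.011).

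In all, 22 members were called only without DMSO replicate 1, of which 15 were higher and 7 lower. That is 29.3% of the members tested, against 31.7% of all genes. The 5 with the smallest adjusted p were RAB6A, TBC1D10B, RAB8B, TBC1D2 and RAB12. RAB6A, which acts in transport within and out of the Golgi, was at 56.4, 34.0 and 33.6 CPM with DMSO and 55.9, 54.6 and 47.5 CPM with erianin (0.65 without DMSO replicate 1, adjusted p = 3.2e-07 by edgeR). RAB8B was at 24.9, 13.99 and 13.1 CPM with DMSO and 24.3, 24.6 and 19.5 CPM with erianin (0.76, adjusted p = 1.5e-06). RAB12 was at 9.43, 7.18 and 6.85 CPM with DMSO and 11.3, 11.3 and 10.2 CPM with erianin (0.66, adjusted p = 6.6e-05). For RAB6A and RAB8B DMSO replicate 1 lay above all erianin libraries, so the groups overlapped. For RAB12 it lay between the other DMSO libraries and the erianin libraries.

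TBC1D10B, a GAP for RAB27 and RAB35, was at 77.6, 106 and 109 CPM with DMSO and 68.0, 71.3 and 80.1 CPM with erianin (-0.54 without DMSO replicate 1, adjusted p = 6.8e-07). TBC1D2, a RAB7 GAP, was at 5.94, 10.1 and 10.2 CPM with DMSO and 6.31, 5.75 and 5.97 CPM with erianin (-0.74, adjusted p = 2.2e-05). In both DMSO replicate 1 fell within the erianin range. TBC1D10C, a GAP of blood cells also called carabin, was at 54.8 CPM in DMSO replicate 1, 125 and 124 CPM in the others and 139, 140 and 166 CPM with erianin, so its change was 0.56 ± 0.29 with that library and 0.27 ± 0.07 without it. RAB8A was at 125, 71.3 and 67.0 CPM with DMSO and 56.3, 59.5 and 55.9 CPM with erianin, with -0.62 ± 0.24 and -0.26 ± 0.07 in the same order.

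**Figure D4:**
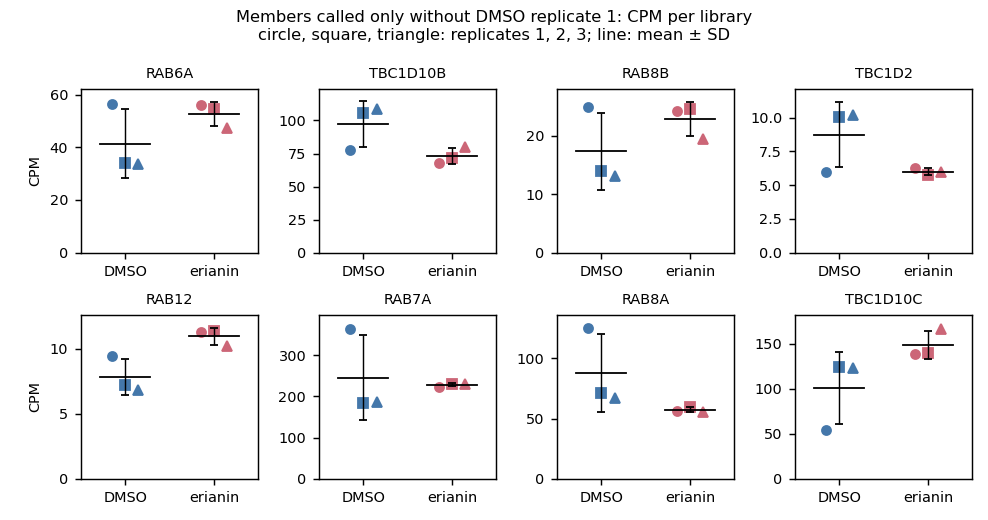
CPM in each library of 8 members called only without DMSO replicate 1, drawn as circles (replicate 1), squares (2) and triangles (3) with mean and SD (n = 3), DMSO in blue and erianin in red. The DMSO circle stands away from the DMSO square and triangle in every panel, as for RAB7A at 364 against 185 and 186 CPM.

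Values of GAPs and the RABs they are known to act on are set side by side. TBC1D14 is paired with RAB11A because it binds RAB11, not as a known RAB11 GAP. Of the RAB7 GAPs, TBC1D5 and TBC1D15 were lower (-0.53 and -0.56) and TBC1D2 was not called (-0.54, adjusted p = 0.11), with RAB7A at -0.10 and not called. TBC1D20, a GAP for RAB1 and RAB18, was not called (0.08 ± 0.10), with RAB1A higher (0.46), RAB1B lower (-0.65) and RAB18 not called (0.03). For RAB27A, which was lower (-0.63), TBC1D10A was not called (0.25 ± 0.14). TBC1D10B, also a GAP for RAB27, was not called either (-0.41 ± 0.15). Its match with RAB27A is not among the 18 pairs counted below. For RAB33B, which was higher (0.46), TBC1D25 was not called (-0.27 ± 0.12). The RAB35 GAPs were at 0.25 (TBC1D10A), -0.41 (TBC1D10B), 0.56 (TBC1D10C) and -0.01 (TBC1D13), none of them called. TBC1D4 (-0.03) stood against RAB8A (-0.62), RAB10 (-0.24) and RAB14 (-0.15), TBC1D30 (-0.24) against RAB8A, TBC1D16 (-0.39) against RAB4A (-0.10) and TBC1D14 (0.15) against RAB11A (-0.14), none of which was called. In none of the 18 pairs were both genes called with all libraries, where 24.2% of all genes were called either way. Without DMSO replicate 1 both were called in 6 pairs, with 55.3% of all genes called either way. How often unrelated pairs would both be called was not tested. RAB7A and RAB35 each recur among the 6. In that fit TBC1D5 (-0.39), TBC1D15 (-0.41) and TBC1D2 (-0.74) were lower with RAB7A higher (0.31). TBC1D10B (-0.54) was lower and TBC1D10C (0.27) higher with RAB35 higher (0.19), and TBC1D25 (-0.34) was lower with RAB33B higher (0.56). Outside the counted pairs, TBC1D10B (-0.54) and RAB27A (-0.50) were then both lower.

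Genes that act on RABs were listed separately, and 102 of 123 were tested. Of these 10 were higher and 16 lower, or 9.80% and 15.7%, against 11.8% and 12.3% of all genes. Scaling by total counts alone turned this to 18 higher and 10 lower of 102, with 15.9% and 7.95% of all genes. Without DMSO replicate 1, 28 were higher and 25 lower (27.5% and 24.5%, against 27.8% and 27.4%). Leaving out DMSO replicate 3 or erianin replicate 1, 2 or 3 left 3, 1, 1 and 3 genes higher, with 7.44%, 3.67%, 3.48% and 5.28% of all genes. Leaving out erianin replicate 1, 2 or 3 left 4, 2 and 8 genes lower, with 2.98%, 2.89% and 4.97% of all genes.

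Among 42 GEF genes tested, 3 were higher and 8 lower (7.14% and 19.0%, against 11.8% and 12.3% of all genes). Without DMSO replicate 1, 10 were higher and 12 lower (23.8% and 28.6%, against 27.8% and 27.4%). TRAPPC9, a subunit of the TRAPPII complex that activates RAB1 and RAB11, was at 43.2, 38.8 and 41.6 CPM with DMSO and 20.3, 20.7 and 19.9 CPM with erianin (-1.02 ± 0.10, adjusted p = 0.0016). RAB3GAP1, which with RAB3GAP2 acts as a RAB3 GAP and a RAB18 GEF, was at 153, 139 and 141 CPM with DMSO and 78.8, 83.4 and 75.1 CPM with erianin (-0.87 ± 0.10, adjusted p = 0.0027). The groups of both genes were far apart, and TRAPPC9 kept its call in every alternative fit. RGP1, which with RIC1 activates RAB6, was at 84.9, 81.2 and 83.3 CPM with DMSO and 53.3, 50.8 and 56.5 CPM with erianin (-0.63 ± 0.10, adjusted p = 0.0055). ANKRD27, a RAB21 GEF also called VARP, went the other way, from 67.9, 63.6 and 58.5 CPM to 103, 99.1 and 102 CPM (0.68 ± 0.10, adjusted p = 0.0053). ANKRD27 also kept its call in every alternative fit, whereas RGP1 just missed the threshold once erianin replicate 2 was dropped (adjusted p = 0.051). On both TPM scales RGP1 and RAB3GAP1 were not called (adjusted p by limma up to 0.24 and 0.073), with RGP1 at -0.35 on log2(TPM + 1) and RAB3GAP1 at -0.58.

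Of 9 genes for GDI, escort and prenylation, RABGGTB was higher and RABGGTA and PRAF2 were lower (11.1% and 22.2%, against 11.8% and 12.3% of all genes). Without DMSO replicate 1 there were 2 higher and 2 lower (22.2% each, against 27.8% and 27.4%). RABGGTA and RABGGTB encode the alpha and beta subunits of the enzyme that attaches the lipid to RABs. RABGGTA was at 36.8, 41.2 and 43.4 CPM with DMSO and 26.9, 27.7 and 29.2 CPM with erianin (-0.53 ± 0.11, adjusted p = 0.014). RABGGTB was at 52.3, 50.7 and 56.7 CPM with DMSO and 88.6, 89.9 and 75.9 CPM with erianin (0.67 ± 0.11, adjusted p = 0.0074). The subunits thus differed in direction in every library, and without erianin replicate 1 or 2 neither was called (adjusted p up to 0.087 and 0.051). PRAF2, of the PRA1 family, changed by -0.73 ± 0.15 (adjusted p = 0.014), a call that ended without any 1 erianin library (up to 0.084). Of 9 further TBC-domain GAPs, EVI5 was higher (0.64 ± 0.18, adjusted p = 0.038) and its paralog EVI5L lower (-0.68 ± 0.12, adjusted p = 0.0091), as was the RAB6-binding RABGAP1 (-0.68 ± 0.19, adjusted p = 0.041). Of these GAPs 11.1% were higher and 22.2% lower, against 11.8% and 12.3% of all genes. Without DMSO replicate 1 there were 2 higher and 3 lower (22.2% and 33.3%, against 27.8% and 27.4%). EVI5 was not called without DMSO replicate 2 or 3 or erianin replicate 1 or 2 (up to 0.15), EVI5L without erianin replicate 1 or 2 (up to 0.064) and RABGAP1 without any 1 erianin library (up to 0.15). On both TPM scales RABGGTA, PRAF2, EVI5L and RABGAP1 were not called (adjusted p by limma up to 0.51, 0.19, 0.33 and 0.079). RABGAP1 was not called with upper-quartile scaling or total counts alone either (adjusted p = 0.053 and 0.08).

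Of 42 effector and tether genes tested, 5 were higher and 4 lower (11.9% and 9.52%, against 11.8% and 12.3% of all genes). Without DMSO replicate 1, 14 were higher and 8 lower (33.3% and 19.0%, against 27.8% and 27.4%). OSBPL1A, a RAB7 effector that senses cholesterol on late endosomes, was at 3.84, 3.02 and 2.79 CPM with DMSO and 1.42, 1.30 and 1.49 CPM with erianin (-1.20 ± 0.20, adjusted p = 0.0072). OPTN, which encodes the RAB8-binding autophagy receptor optineurin, was at 36.03, 27.5 and 29.6 CPM with DMSO and 20.6, 21.5 and 21.3 CPM with erianin (-0.55 ± 0.13, adjusted p = 0.022). Both were lower in every erianin library. RILPL2, which binds phosphorylated RABs, changed by 0.64 ± 0.13 (adjusted p = 0.015), and the dynein adaptor BICD2, which binds RAB6, by 0.43 ± 0.09 (adjusted p = 0.018). OSBPL1A just missed it once erianin replicate 2 was dropped (adjusted p = 0.051), RILPL2 and OPTN were not called without any 1 erianin library (up to 0.074 and 0.11) and BICD2 lost its call when any of the 5 libraries apart from DMSO replicate 1 was dropped (up to 0.085). On both TPM scales OPTN, RILPL2 and BICD2 were not called (adjusted p by limma up to 0.25, 0.072 and 0.065), nor was OPTN with total counts alone (adjusted p = 0.057).

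**Figure D5:**
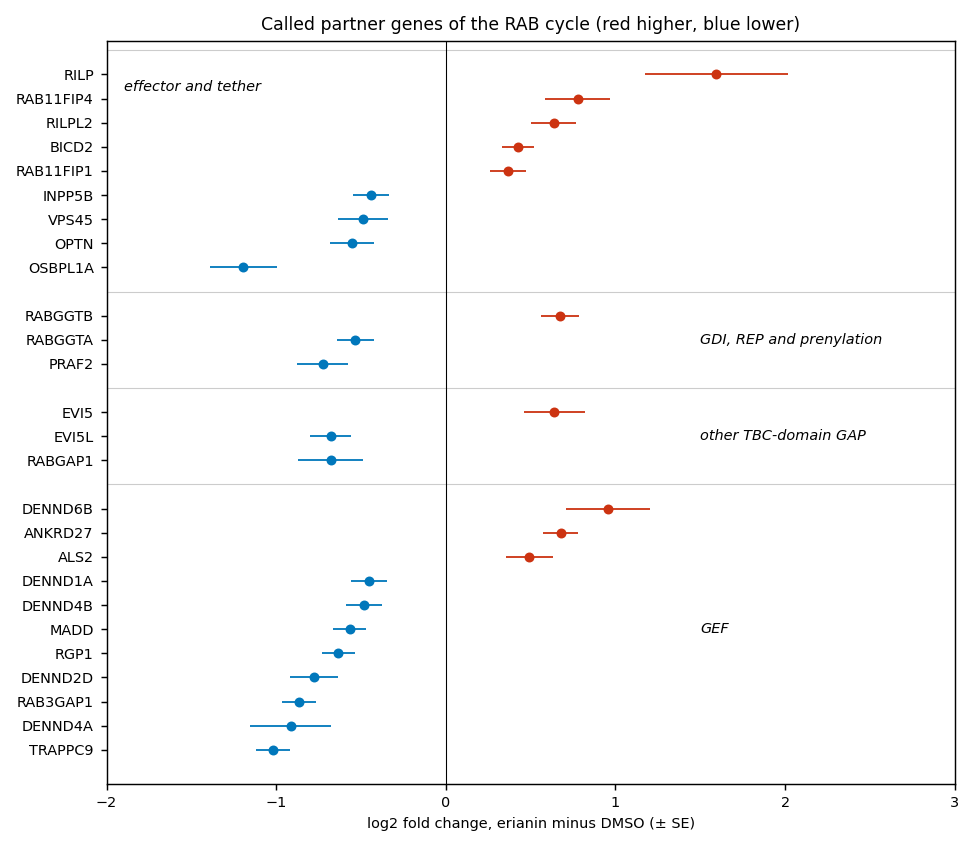
Log2 fold change (erianin minus DMSO, 3 libraries each) with standard error of the 26 called genes of the RAB cycle outside the members, in 4 groups. Red is higher (10 genes) and blue lower (16 genes), with TRAPPC9 at -1.02 at the low end of the GEFs and RABGGTA and RABGGTB on opposite sides of 0.

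Members with few counts were left out of the test. RAB3B, RAB33A, RAB26, RAB25, RAB7B, RAB44 and TBC1D3 met the rule but were not tested, with at most 0.710 CPM in any library (RAB25 in erianin replicate 1). TBC1D3 has near-identical copies, so its counts are uncertain. Just inside the minimum were RAB26 (21 counts over 6 libraries), RAB7B (24) and RAB3B (25), and just outside it RAB1C (17), RAB40B (11) and TBC1D3B and TBC1D9 (8 each). RAB27B, the other RAB27 gene, had 4 counts in all, so the RAB27 family was represented by RAB27A. RAB32 and RAB20 were among 9 matching symbols listed at 0.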

How the data were processed

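The tables the authors deposited hold raw counts (whole numbers) and TPM, 1 column per library. Programs listed in the submitters' processing notes are STAR 2.7.10, fastp 0.23.2, StringTie 2.2.1 and featureCounts 2.0.1, with the build GRCh38 (hg38) and no role for each. How strand and multi-mapping reads were handled, and on which annotation release, is not given in the sources used here, so reads of overlapping genes and paralogs may be merged or split. Summed over genes, TPM reached 39.2% of its full total for DMSO replicate 1 but 63.6% to 66.7% for the remaining libraries.

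Of 65807 entries 61 repeated symbols were left out, and filterByExpr kept 11550 genes. The main test was edgeR 4.0.16 (R 4.3.3) glmQLFTest with TMM scaling and treatment as the single term, with Benjamini-Hochberg adjustment over all genes tested and a threshold of 0.05. The SE was computed as the absolute log2 fold change divided by the square root of the F statistic. Paralog shares were compared by exact permutation. Alternatives were other scalings and filters, DESeq2 1.42.0, limma 3.58.1 (voom, and trend on log2 TPM), a replicate block and each library left out. The erianin against DMSO comparison was also run on simulated data of 11420 genes, 200 of them changed by a factor of 1.5 or 2. Only 3% of the genes set to differ by a factor of 1.5 were called, against 44% at a factor of 2. Among the 52 genes called there, 9.62% were false, above the threshold of 0.05. Far fewer genes were changed there than were called in the data (2791 of 11550), so the adjustment was stricter. These shares therefore do not give the recovery in the data. A gene given as not called may still have changed by such factors. Members, lists and the rule for named genes were chosen with earlier results of these data known. The rule took all called members, the 5 highest in TPM, the 5 with the smallest p called only without DMSO replicate 1, up to 4 called genes per partner list, and fixed families and GAP and RAB pairs. RAB3C, TBC1D10C and TBC1D24 were named after their values were seen. Coordinates and shared exons come from GENCODE release 29 (GRCh38), which may differ from the release counted; 81 of 82 members matched by identifier. Promoters come from RefSeq. Tables and figures used Python 3.11.15, pandas 2.3.3, scipy 1.17.1 and matplotlib 3.10.9.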

Additional observations from a re-analysis of the deposited data

How the results depend on the processing

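Of 20 called members, RAB11B, RAB31, TBC1D1 and TBC1D17 kept their call in all 16 alternatives and the other 16 lost it in at least 1, 10 of them on a TPM scale. On those scales the median of all genes was 0.20 and 0.28. The TPM were not rescaled for their low sum in DMSO replicate 1, and its part in these losses was not tested. Direction changed past a threshold once, for RAB7A (0.31 without DMSO replicate 1, with a range of -0.27 to 0.31 over the libraries left out). Total counts alone moved the median log2 fold change of all genes by 0.11. It gave 1 TBC1D gene higher and 4 lower, and 18 partner genes higher and 10 lower, where upper-quartile scaling gave 1 TBC1D gene higher and DESeq2 17 partner genes higher. Of all genes, total counts alone called 15.9% higher and 7.95% lower. Upper-quartile scaling called 15.3% of all genes higher and DESeq2 15.1%. On either TPM scale 1 RAB, 2 TBC1D and 2 partner genes were lower, with 2.27% and 2.12% of all genes lower. On the same scales 13 and 12 RAB genes were higher, with 12.2% and 10.9% of all genes higher. Leaving out 1 library gave 1 to 20 RAB genes higher and 1 to 6 lower, 0 to 4 TBC1D genes higher and 2 to 12 lower, and 1 to 28 partner genes higher and 2 to 25 lower. Over all genes these fits called 3.48% to 27.8% higher and 2.89% to 27.4% lower. As shares of counts, unscaled for length, the erianin minus DMSO differences were 18.02 percentage points for RAB1A, 0.388 for RAB26, -18.8 for RAB3C and 13.4 for RAB39A, against 11.99, 1.34, -10.8 and 16.96 as shares of TPM. The cause of these differences was not tested. Depth left 7 members untested, and RAB9B, called at under 1 CPM, is the least precise of the called members.

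With the replicate number as a block, 5 of 48 RAB genes were higher, with 9.86% of all genes higher in that fit. Among members the calls of RAB9B, RAB22A, RAB29, RAB33B and TBC1D22B ended. Deviations of same-numbered libraries correlated at 0.17, -0.14 and 0.23, and not every library correlated best with its own number. These deviations were taken from means of 3 libraries, and DMSO replicate 1 stood apart. The correlations therefore cannot decide whether same-numbered libraries were paired.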
